A study of Arabidopsis thaliana with 16 samples.

Results

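The genes described here are those whose transcript level was higher on every array from hydrogen peroxide (H2O2) treated Arabidopsis seedlings than on 5 of the 6 untreated arrays. The members were chosen by measured values: a probe set, the group of array probes that reports 1 transcript or a few similar ones, was taken in when its lowest log2 signal on the 10 arrays with H2O2 exceeded by more than 1 its highest log2 signal on 5 of the 6 arrays at 0 mM. The sixth, solvent replicate 3 at 0 mM, was not used by this rule and is described separately. Of 22746 probe sets that are not controls, 175 met the margin, or 0.769%, and 172 remained after UGT73B4, UGT73B5 and UGT76E12 were left out by their symbols, as genes with symbols starting HSP or UGT and plastid-encoded genes were to be. The same rule turned downwards was met by 71 probe sets, or 0.312%. These counts describe how the genes were chosen and are not a test.

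The seedlings were wild-type ecotype Col, grown whole in liquid culture for 12 days and moved to darkness 1 h before treatment. A pretreatment of 30 min gave H2O2 at 1, 5, 25, 50 or 100 mM, or none (0 mM). It was followed by 1 h with 1 µM epi-brassinolide (BL), a brassinosteroid growth hormone, or its ethanol solvent, with the H2O2 still present. There was 1 array with BL and 1 with solvent at each H2O2 dose, and 3 with BL and 3 with solvent at 0 mM, in all 16 arrays. The labels number the 0 mM replicates but do not say that they are separate cultures, so p-values measure only the spread of these arrays around the fitted values. The label "raised at every dose" holds by construction against 5 of the 0 mM arrays, and on the sixth 88 of the 172 probe sets were at or above their lowest H2O2 array.

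Hydrogen peroxide is a reactive oxygen species that plant cells make in photosynthesis, respiration and defence and remove with catalases and peroxidases. At low levels it acts as a signal by oxidising cysteines in proteins, and at high levels it damages lipids, proteins and nucleic acids. Plants are known to answer it with transcripts for glutathione transferases and other detoxifying enzymes, heat shock proteins, calcium sensors, and zinc finger, ERF and WRKY transcription factors.

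Across the 172 probe sets the median of the mean level was 8.66 on the 10 H2O2 arrays and 5.998 on the 5 arrays at 0 mM, both as log2 signal. The margin between the lowest H2O2 array and the highest of the 5 arrays had a median of 1.44 and lay between 1.00 and 5.37. It was above 2 for 35 probe sets, above 3 for 11 and above 4 for 4. The median difference between a dose and the 5 arrays was 2.86 at 1 mM, 3.09 at 5 mM, 2.66 at 25 mM, 2.43 at 50 mM and 2.32 at 100 mM. For 59 probe sets all 5 arrays lay under 5, and for 10 their mean was within 0.5 of the lowest value in the table, 2.12, so the size of those differences is uncertain.

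The annotation gave 81 of the 172 probe sets 1 gene symbol, 2 several and 89 none. The 81 stood for 80 genes, of which 11 have a symbol of their own and 69 are known by locus only. Just inside the margin were AT4G16000, with a lowest H2O2 value of 8.63 against 7.63 at 0 mM, AT1G77660, with 4.75 against 3.75, and AT5G02230, with 7.92 against 6.92. Just outside were AT3G50560, AT5G16650 and AT3G49790, with margins of 0.99, 0.98 and 0.98.

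**Figure D1:**
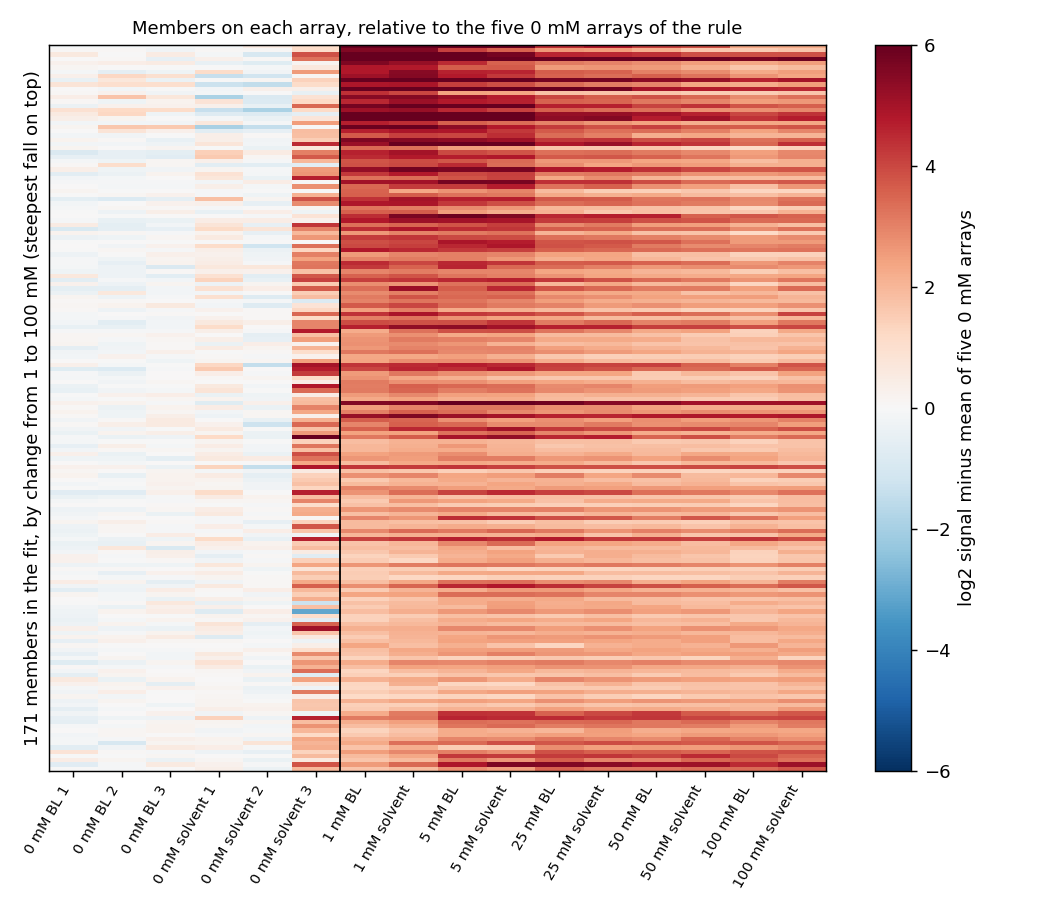
Log2 signal minus the mean of the 5 arrays at 0 mM used by the rule, for the 171 members that passed the filter (rows, steepest fall with dose on top) on the 16 arrays (columns, by dose, BL left of solvent). Red is higher, as all H2O2 arrays are by construction, the upper rows are darkest at 1 and 5 mM, and solvent replicate 3 at 0 mM is red in many rows.

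The 16 arrays differed in 2 further ways that touch these genes. Solvent replicate 3 had a Pearson correlation over probe sets of 0.857 to 0.890 with the H2O2 arrays and 0.816 to 0.907 with the other 0 mM arrays, which correlated with one another at 0.958 to 0.990. The signal of the 6 Arabidopsis control transcripts at their 3' end minus that at their 5' end, a sign of RNA integrity and labelling, was 1.40 to 1.60 at 0 mM and reached 2.03 on the BL array and 1.88 on the solvent array at 100 mM. Among markers of seedling parts, only 4 of 15 listed genes could be matched to a probe set with 1 symbol, and none was a member. The root gene PYK10 averaged 13.65 on the H2O2 arrays and 13.55 on the 5 arrays at 0 mM, and the root hair expansins EXPA7 and EXPA18 averaged 2.27 and 2.17 on the H2O2 arrays and 4.44 and 4.39 on the 5 at 0 mM. Both expansins were too low to pass the filter, with H2O2 values near the lowest in the table, so the size of their difference is uncertain. The guard cell gene FMA averaged 5.21 on the H2O2 arrays and 7.25 on the 5 at 0 mM, and no listed marker of the photosynthetic shoot could be matched. In whole seedlings fewer cells of a type and less RNA per cell cannot be told apart.

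Among the enzymes of detoxification and reduction, GSTU25, a glutathione transferase that joins glutathione to reactive compounds, had a margin of 4.22. On the BL arrays its log2 signal was 9.05 at 1 mM, 9.24 at 5 mM, 8.32 at 25 mM, 7.25 at 50 mM and 6.89 at 100 mM, and on the solvent arrays 9.14, 9.05, 8.07, 7.01 and 6.80. At 0 mM it was 2.28, 2.12 and 2.26 with BL and 2.12, 2.58 and 2.58 with solvent. The 0 mM arrays all lay near the lowest value in the table, solvent replicate 3 included, and the H2O2 arrays were highest at 1 and 5 mM.

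GT72B1, a glucosyltransferase of the family that conjugates sugars to small phenolic and foreign compounds, had 11.53, 11.76, 10.93, 10.57 and 10.10 on the BL arrays from 1 to 100 mM and 11.86, 11.67, 10.87, 10.47 and 10.15 on the solvent arrays. The 0 mM arrays had 6.65, 6.27 and 6.32 with BL and 7.15, 7.18 and 6.99 with solvent. Every H2O2 array was far above every 0 mM array, and the arrays from 25 mM on were below those at 1 and 5 mM.

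AT5G16960 and AT5G16980 encode zinc-binding dehydrogenase-like proteins and lie on either side of the alkenal reductase gene AER in the gene order of chromosome 5. AT5G16960 had 6.80, 7.84, 6.69, 6.65 and 5.51 on the BL arrays from 1 to 100 mM and 6.94, 7.64, 6.74, 6.25 and 5.47 on the solvent arrays, against 2.93, 2.96 and 2.93 with BL and 2.93, 2.91 and 2.93 with solvent at 0 mM. AT5G16980 had 10.18, 8.70, 7.21, 6.75 and 6.15 on the BL arrays and 10.19, 8.15, 7.14, 6.25 and 6.28 on the solvent arrays, against 4.67, 4.68 and 4.39 with BL and 4.68, 4.68 and 5.73 with solvent at 0 mM. Both genes were lowest at 100 mM or close to it, but AT5G16980 was highest at 1 mM and AT5G16960 at 5 mM. AER itself, whose product reduces reactive aldehydes formed from lipids, missed the rule with a margin of 0.33.

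The other genes of this group were AT3G44190, a FAD/NAD(P)-binding oxidoreductase, AT1G75280, an isoflavone reductase-like protein, and AT1G33110, a transporter of the MATE family. Their mean levels on the H2O2 arrays were 10.89, 10.36 and 8.47 and on the 5 arrays at 0 mM 8.70, 7.99 and 6.64. The margins of all 7 detoxification genes ran from 1.19 to 4.22.

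Glutaredoxins reduce disulphides with glutathione, and 3 members encode proteins of that family. GRX480, which also binds TGA transcription factors, had 9.55, 9.77, 8.51, 7.88 and 7.59 on the BL arrays from 1 to 100 mM and 9.85, 9.82, 8.47, 8.15 and 7.41 on the solvent arrays. Without H2O2 it had 3.45, 4.07 and 4.07 with BL and 4.15, 3.38 and 7.25 with solvent, so solvent replicate 3 alone was close to the 100 mM arrays. AT3G62950 had 6.47, 8.74, 9.47, 9.002 and 8.40 on the BL arrays and 7.35, 9.52, 9.30, 8.97 and 9.03 on the solvent arrays, against 3.21, 3.85 and 4.47 with BL and 4.19, 3.81 and 7.69 with solvent at 0 mM. It was lowest at 1 mM, unlike GRX480, and solvent replicate 3 exceeded both 1 mM arrays. AT1G64500 averaged 6.57 ± 0.35 (SD, n = 10) on the H2O2 arrays and 4.47 ± 0.18 (SD, n = 5) at 0 mM.

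The calmodulin-like protein gene CML37, which encodes a calcium sensor, stood at 7.36, 8.05, 6.71, 6.23 and 5.86 on the BL arrays from 1 to 100 mM and at 7.38, 8.03, 6.71, 5.71 and 6.05 on the solvent arrays. The 0 mM arrays gave 2.23, 2.23 and 2.23 with BL and 2.16, 2.76 and 2.31 with solvent. Its 0 mM values lay near the lowest value of the table on all 6 arrays.

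PUB24, a U-box ubiquitin ligase, had 8.97, 9.23, 8.19, 8.03 and 7.10 on the BL arrays and 9.27, 9.32, 8.23, 7.71 and 7.45 on the solvent arrays. At 0 mM it had 4.00, 3.99 and 3.82 with BL and 6.09, 4.60 and 8.20 with solvent, where solvent replicate 3 fell among the H2O2 arrays. The remaining genes for signalling and protein turnover were AT3G62260, a protein phosphatase 2C, AT4G21323, a subtilisin-like protease, and AT3G43430, a RING finger protein, with mean levels of 7.52, 6.41 and 8.59 on the H2O2 arrays and 5.20, 3.39 and 6.63 on the 5 arrays at 0 mM.

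Among transcriptional regulators, STZ (also ZAT10), a zinc finger repressor induced by many stresses, had 11.57, 11.90, 10.96, 10.43 and 10.12 on the BL arrays from 1 to 100 mM and 12.22, 11.94, 10.91, 10.49 and 10.51 on the solvent arrays. Its 0 mM levels were 6.64, 6.43 and 6.67 with BL and 9.04, 7.38 and 11.07 with solvent. The solvent arrays at 0 mM were spread widely, and replicate 3 lay within the H2O2 range. AT1G22810, an ERF-type factor, had 8.56, 8.41, 6.69, 6.35 and 4.55 on the BL arrays and 8.82, 8.62, 7.03, 6.10 and 4.53 on the solvent arrays, against 2.12, 2.12 and 2.12 with BL and 2.12, 2.75 and 3.35 with solvent at 0 mM. No other named member lost as much of its level between the low and high doses. The zinc finger gene AT3G53600 averaged 3.78 on the H2O2 arrays and 2.12 on the 5 at 0 mM and was the only member that did not pass the filter of at least 5 on at least 2 arrays, so it entered no test.

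AT1G53540 and AT1G52560 are listed by locus but encode small heat shock proteins, chaperones that bind unfolding proteins, so the rule on symbols kept them. AT1G53540 had 13.22, 12.69, 11.72, 11.45 and 10.87 on the BL arrays from 1 to 100 mM and 13.37, 12.22, 11.52, 10.88 and 11.04 on the solvent arrays. At 0 mM it had 9.05, 9.36 and 9.27 with BL and 6.78, 6.25 and 9.29 with solvent, so solvent replicate 3 lay among the BL arrays. AT1G52560 had 10.54, 10.004, 8.85, 8.77 and 8.29 on the BL arrays and 10.59, 9.39, 8.49, 8.31 and 8.43 on the solvent arrays, against 4.83, 6.26 and 6.23 with BL and 2.72, 3.24 and 4.64 with solvent at 0 mM. For both genes every BL array at 0 mM was above solvent replicates 1 and 2.

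LTI30, a dehydrin that protects membranes during drying and cold, had 11.83, 10.76, 10.34, 10.07 and 9.89 on the BL arrays and 11.89, 10.46, 9.86, 9.90 and 10.35 on the solvent arrays. Untreated arrays had 8.23, 7.93 and 8.63 with BL and 7.82, 8.67 and 8.01 with solvent, and the 1 mM pair stood above all other arrays. AT5G27760, a hypoxia-responsive family protein, averaged 12.57 ± 0.31 on the 10 H2O2 arrays and 10.63 ± 0.15 on the 5 at 0 mM (SD). AT3G62550, a universal stress protein, had 12.57, 13.33, 13.33, 13.18 and 12.73 on the BL arrays and 12.91, 13.61, 13.50, 13.30 and 13.06 on the solvent arrays, against 10.46, 10.90 and 11.14 with BL and 9.94, 11.12 and 7.58 with solvent at 0 mM. Its level on solvent replicate 3 was the lowest of the 16 arrays.

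The immunity genes were AT5G58120 and AT3G44630, which encode TIR-NBS-LRR receptors, AT3G55840, a relative of a beet nematode resistance protein, AT4G39670, a glycolipid transfer protein, and AT3G47540, a chitinase family protein. AT3G55840 had the widest margin of the 5, 3.37, with means of 8.36 ± 0.80 (SD, n = 10) on the H2O2 arrays and 3.57 ± 0.27 (SD, n = 5) at 0 mM. AT4G39670 had 8.03, 8.51, 7.08, 6.77 and 6.60 on the BL arrays from 1 to 100 mM and 8.12, 8.81, 7.54, 6.56 and 6.61 on the solvent arrays, against 4.56, 4.61 and 4.75 with BL and 5.44, 4.36 and 9.42 with solvent at 0 mM. For this gene solvent replicate 3 was above every H2O2 array.

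Genes for lipid and ester hydrolases were the lipases AT5G18630 and AT1G02660 and the alpha/beta hydrolases AT1G73480, AT4G24160 and AT1G68620, with margins of 1.16 to 1.96. In the cell wall and phenylpropanoid group, CCR2, a cinnamoyl-CoA reductase of lignin synthesis, had 6.84, 8.63, 8.17, 7.18 and 6.72 on the BL arrays and 7.30, 8.96, 8.40, 7.54 and 7.05 on the solvent arrays. The levels at 0 mM were 3.58, 3.26 and 3.38 with BL and 4.85, 3.27 and 10.25 with solvent. Solvent replicate 3 was thus the highest of all arrays for CCR2, while solvent replicate 2 was among the lowest. BGLU28, a beta-glucosidase, had 5.11, 6.61, 6.05, 5.23 and 5.45 on the BL arrays and 4.84, 6.50, 5.91, 5.92 and 4.65 on the solvent arrays, against 2.12, 2.19 and 2.22 with BL and 2.12, 2.26 and 2.30 with solvent at 0 mM. This gene was low on all 6 arrays at 0 mM. The others of the group were AT3G47380, of the pectin methylesterase inhibitor family, and AT2G41640, a glycosyltransferase.

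In primary metabolism, SUFE2, which activates sulphur transfer for iron-sulphur clusters, averaged 8.93 ± 0.66 (SD, n = 10) on the H2O2 arrays and 5.12 ± 0.79 (SD, n = 5) at 0 mM, with 9.23 on solvent replicate 3. GAT1_2.1, a glutamine amidotransferase-like protein, was measured by a pair of probe sets with margins of 1.05 and 1.01, and both were above the other 5 arrays on solvent replicate 3. AT3G49160, a pyruvate kinase family protein, had a margin of 2.29. The role groups above hold 42 genes, were drawn up after the values were seen, and leave 38 genes with 1 symbol outside.

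The widest margin among genes with 1 symbol, 4.23, belonged to AT5G05220, with 7.83 ± 0.31 (SD, n = 10) on the H2O2 arrays and 2.88 ± 0.27 (SD, n = 5) at 0 mM. On solvent replicate 3 AT5G05220 was at 3.18, among the other 0 mM arrays. AT4G27657, with a margin of 3.48, had 6.95, 8.38, 7.03, 7.19 and 6.26 on the BL arrays from 1 to 100 mM and 8.17, 8.08, 7.20, 6.03 and 6.06 on the solvent arrays. At 0 mM this locus had 2.54, 2.50 and 2.52 with BL and 2.55, 2.47 and 3.36 with solvent. AT3G17110, a transcribed pseudogene in the RefSeq table, had a margin of 2.45 and lay at 7.003 on solvent replicate 3, just under its lowest H2O2 array. The neighbouring loci AT4G33660 and AT4G33666 both belonged to the members, the first highest at 1 mM and the second at 25 mM. AT5G54170 was nearly level over the H2O2 arrays, with 11.13 ± 0.08 (SD, n = 10) there and 9.74 ± 0.14 (SD, n = 5) at 0 mM.

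**Figure D2:**
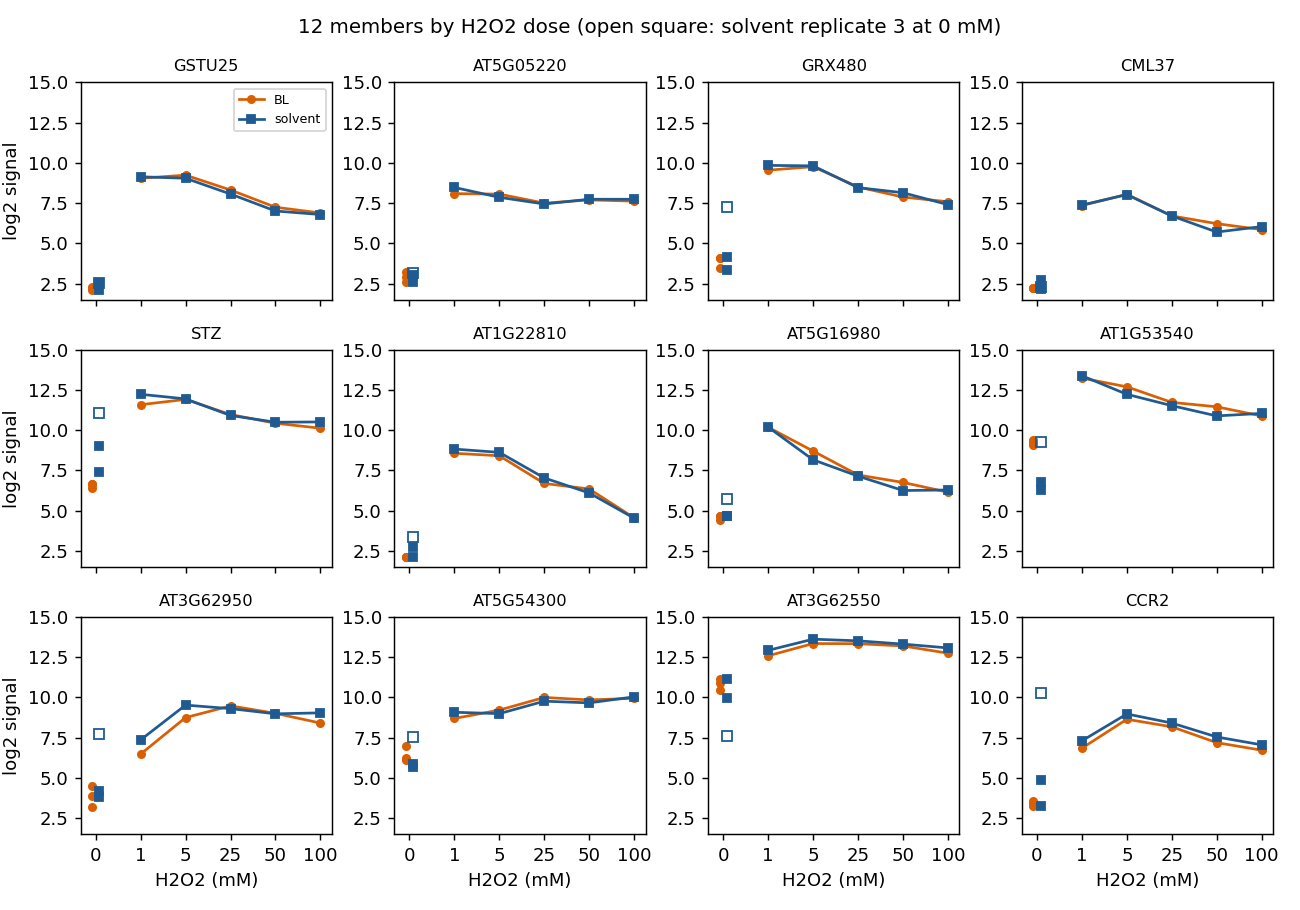
Log2 signal (y axis) against H2O2 dose in mM (x axis, not to scale) for 12 members, with BL as orange circles, solvent as blue squares and solvent replicate 3 as the open square. Between 1 and 100 mM AT1G22810 and AT5G16980 go down, AT5G54300 goes up and AT3G62550 changes little, and the open square is above the lines only for CCR2.

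The change of level between H2O2 doses was tested on the 10 H2O2 arrays alone. The rule set no order among doses, but it read the lowest of these 10 values, and a gene that rose only gradually from its 0 mM level could not meet it at 1 mM. The shares of members that fell or rose are therefore a description, and their comparison with the shares of all probe sets is not free of the rule. The slope over log2(1 + dose) is given as the fitted log2 change between 1 and 100 mM. With 1 array per dose and hormone state, departures from a straight line count as spread in its p-value. A gene highest at a middle dose can therefore go uncalled although it differed between doses. Of 171 members that passed the filter, 90 fell with dose (52.6%) and 13 rose (7.60%) by limma at an adjusted p under 0.05, while among all 13140 probe sets 16.2% fell and 22.2% rose. The median slope was -0.66 for the members and 0.06 for all probe sets. The members that fell had median levels of 9.70, 9.74, 9.06, 8.47 and 8.32 at 1, 5, 25, 50 and 100 mM. At 100 mM they were a median of 2.40 above the 5 arrays at 0 mM, where the rule already required more than 1. Those that rose had 9.03, 9.25, 9.87, 9.74 and 9.98.

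The dose with the highest mean of BL and solvent was 1 mM for 64 members, 5 mM for 78, 25 mM for 14, 50 mM for 2 and 100 mM for 14. As shares, 45.3% of members and 15.7% of the probe sets that passed the filter were highest at 5 mM, and 8.14% of members and 32.8% of those probe sets at 100 mM. The 3' minus 5' signal of the control transcripts moved with dose as well, as did the root gene PYK10, with a slope of 0.94, and the guard cell gene FMA, with -1.38. Their part in the members' slopes was not tested.

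**Figure D3:**
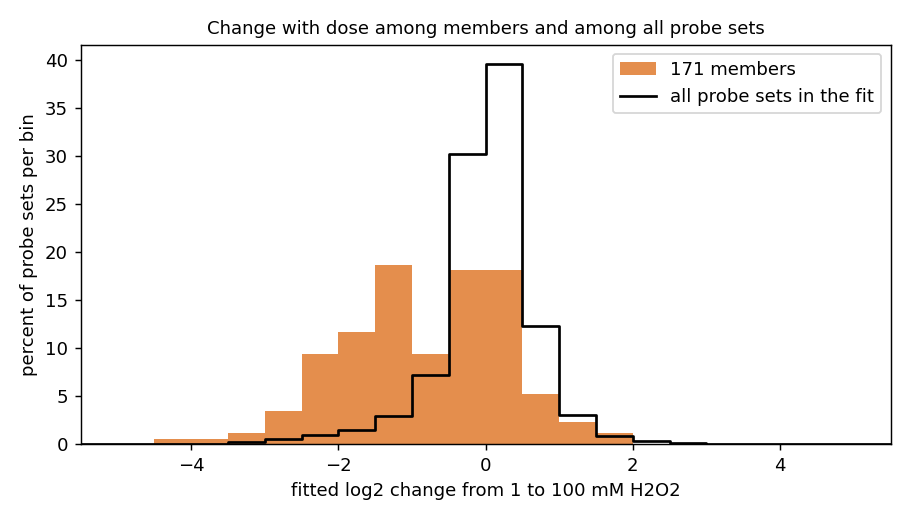
Percent of probe sets (y axis) in bins of the fitted log2 change between 1 and 100 mM H2O2 (x axis), with the 171 members as bars and all tested probe sets as the line. The members have a median of -0.66 and all probe sets one of 0.06. In each bin between -4.5 and -0.5 the share of members is larger than that of all probe sets. The lowest slope is -4.02 among members and -4.85 among all probe sets.

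By role, all 7 detoxification genes fell with dose. The counts by role stand beside 52.6% of all tested members and 16.2% of all probe sets that fell. Differences between the role groups, drawn up after the values were seen, were not tested. AT5G16980 changed by -3.93 (SE 0.26, limma adjusted p = 5.12e-06) and GSTU25 by -2.48 (SE 0.28, limma adjusted p = 0.000113). GT72B1 changed by -1.68 (SE 0.18, limma adjusted p = 6.47e-05), and AT5G16960 by -1.48 (SE 0.43, limma adjusted p = 0.0193). Of the 3 glutaredoxin genes, GRX480 fell by 2.40 (SE 0.24, limma adjusted p = 4.89e-05) and AT1G64500 rose by 0.71 (SE 0.18, limma adjusted p = 0.0108), which missed the threshold when the 1 mM BL array (adjusted p = 0.0665) or the 1 mM solvent array (0.0562) was left out and with a linear dose (0.129). AT3G62950 had a slope of 1.54 that missed the threshold (SE 0.61, limma adjusted p = 0.0685).

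The steepest fall of a named gene was that of the ERF-type factor AT1G22810, at -4.02 (SE 0.41, limma adjusted p = 5.22e-05). Of the 4 regulators tested 3 fell, STZ by 1.82 (SE 0.21, limma adjusted p = 0.000108) and the trihelix factor AT5G01380 among them, and AT4G15120, a VQ motif protein, had a slope of -0.53 that was not called. Signalling and turnover genes fell in 4 of 5 cases, PUB24 by 1.96 (SE 0.24, limma adjusted p = 0.000184) and CML37 by 1.91 (SE 0.37, limma adjusted p = 0.00286). Both small heat shock protein genes fell, AT1G53540 by 2.37 (SE 0.17, limma adjusted p = 8.14e-06) and AT1G52560 by 2.26 (SE 0.20, limma adjusted p = 2.67e-05).

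In the dehydration, hypoxia and universal stress group 2 of 3 fell, beside 52.6% of all tested members. LTI30 changed by -1.71 (SE 0.31, limma adjusted p = 0.00188), but missed the threshold without both 1 mM arrays (-0.77, adjusted p = 0.0879) and with a linear dose (0.109), and AT3G62550 had a slope of 0.12 (limma adjusted p = 0.746). Among immunity genes 2 of 5 fell, AT3G55840 and AT4G39670, with fitted changes of -1.93 and -1.92. The hydrolases fell in 2 of 5 cases, the wall and phenylpropanoid genes in 1 of 4, with CCR2 at -0.53 (limma adjusted p = 0.522) and BGLU28 at -0.20 (limma adjusted p = 0.803). Of the 4 probe sets in primary metabolism 1 fell, that of SUFE2, by 1.41 (SE 0.31, limma adjusted p = 0.00565).

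Further falls among the 10 steepest were those of AT1G05575 (-2.41), AT2G18210 (-2.18) and AT4G01870 (-2.03), none of them given a role here. Of the 89 unnamed members 47 fell and 7 rose, and of the 80 tested with 1 symbol 43 fell and 5 rose. The 68 members that were not called had median levels of 7.94, 8.59, 8.28, 8.18 and 8.11 at 1, 5, 25, 50 and 100 mM. Besides AT1G64500, the named genes that rose were AT5G54300 by 1.17 (SE 0.17, limma adjusted p = 0.00044), AT4G16000 by 1.08, AT2G32150 by 0.58 and AT1G72070 by 0.34. AT5G54300 had 8.68, 9.21, 9.99, 9.84 and 9.94 on the BL arrays from 1 to 100 mM and 9.07, 8.98, 9.76, 9.65 and 10.03 on the solvent arrays, against 6.99, 6.23 and 6.11 with BL and 5.87, 5.69 and 7.51 with solvent at 0 mM. Its largest step between neighbouring H2O2 doses, on both kinds of array, was between 5 and 25 mM. The call of AT4G16000 was lost without both 100 mM arrays (adjusted p = 0.0517), and those of AT2G32150 and AT1G72070 without both 1 mM arrays (0.441 and 0.376) and with a linear dose (0.185 and 0.0792).

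Solvent replicate 3 was not used by the rule, but the highest of the other 0 mM arrays, which it is set against here, was. Since that value had to be low for a member, the counts on this array describe the members and are no independent check of them. On it 113 of 172 members (65.7%) were more than 1 above the highest of the other 0 mM arrays, against 8.07% of the probe sets that passed the filter. Set against the H2O2 arrays, 49 members were more than 1 under their lowest H2O2 array there, 7 of them also among the 113. Of all members, 19 lay within the range of the other 0 mM arrays, 8 lay below it, AT3G62550 among them, and 21 were above every H2O2 array. The share of all probe sets was counted only beside the 113, so the other counts on this array have no background. The median member level was 7.93 on that array, and 5.93, 6.17 and 6.11 on the BL arrays and 6.34 and 5.80 on the other solvent arrays at 0 mM. The root hair expansins EXPA7 and EXPA18 were at 2.28 and 2.18 on this array, as low as on the H2O2 arrays and near the lowest value in the table, and PYK10 was at 12.00. The guard cell gene FMA was at 6.74, between the mean of the H2O2 arrays and that of the other 0 mM arrays. The labels give no reason for the difference of this array, and the part of these marker shifts in it was not tested.

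The role groups gave different counts on this array, and those differences were not tested. All 5 immunity genes, all 4 primary metabolism probe sets and all 3 glutaredoxin genes exceeded the other 0 mM arrays by more than 1. So did 113 of all 172 members. More than 1 under the lowest H2O2 array were 5 of 7 detoxification genes and both small heat shock protein genes. Among all members 49 were that low. The 2 counts overlap, as 1 immunity gene and 1 probe set of primary metabolism were in both. The highest relative to the lowest H2O2 array were CCR2 by 3.53, AT4G39670 by 2.86, AT3G02840 by 2.49, AT1G68620 by 2.38 and AT5G22530 by 1.95. The lowest were AT3G62550 at -4.99, AT5G05220 at -4.27, GSTU25 at -4.22, AT1G52560 at -3.66 and CML37 at -3.40. If all 6 arrays at 0 mM were used, 49 members would remain.

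**Figure D4:**
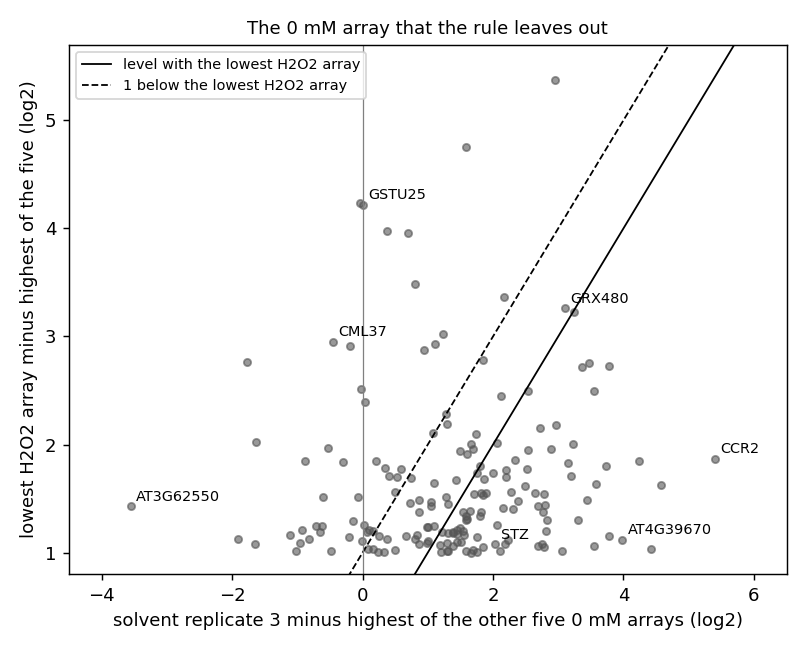
Solvent replicate 3 minus the highest of the other 0 mM arrays (x axis, log2) against the margin used by the rule (y axis, log2), 1 point per member. The 88 points on or right of the solid line were at or above their lowest H2O2 array on this untreated array, and the 49 left of the dashed line were more than 1 under it.

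No member was called for BL while H2O2 was present. In limma with dose as a block, 0 of 171 members and 0 of 13140 probe sets (0%) were called for BL against solvent on the H2O2 arrays, with 17 members and 787 probe sets at an unadjusted p under 0.05. The member differences had a median of -0.03 and lay between -0.66 and 0.45, and the 95% intervals of 170 of 171 stayed within 1 in either direction. By dose, the median of BL minus solvent over members was -0.22 at 1 mM, 0.07 at 5 mM, 0.07 at 25 mM, 0.09 at 50 mM and -0.16 at 100 mM. The median over all probe sets that passed the filter lay between -0.04 and 0.04 at each dose. Of 172 members, 142 were lower with BL at 1 mM, 70 at 5 mM, 62 at 25 mM, 59 at 50 mM and 122 at 100 mM, each from 1 pair of arrays. The share of all probe sets lower with BL was not counted by dose. In the fit over all doses 102 of 171 members and 50.9% of all probe sets were lower with BL. For the dose slope with BL minus that with solvent, limma called 0 members and 0 of 13140 probe sets (0%), with 3 members and 442 probe sets at an unadjusted p under 0.05. The 95% interval of that difference reached a median of 0.93 to either side, wider than the 0.24 of the BL difference itself.

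**Figure D5:**
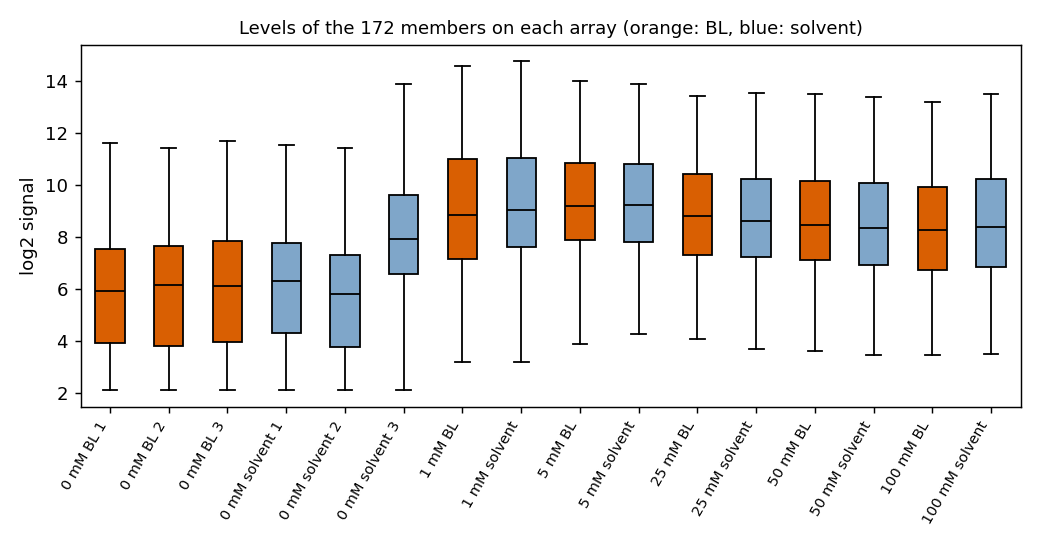
Log2 signal of the 172 members (y axis) on each of the 16 arrays, with the box from the lower to the upper quartile, a line at the median and whiskers to the lowest and highest member. The medians are 8.27 to 9.26 on the H2O2 arrays and 5.80 to 6.34 at 0 mM apart from solvent replicate 3, at 7.93.

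At 0 mM, 5 of the 6 arrays compared had been used by the rule, and 58 of the members tested lay under 5 on all 5 of them and passed the filter through other arrays. The counts that follow are therefore a description. Limma called 0 members for BL against solvent at 0 mM (3 of 13140 probe sets, 0.0228%), with 14 members and 1213 probe sets at an unadjusted p under 0.05, and the median difference was -0.64. Without solvent replicate 3 that median was -0.08, and 3 members (1.75%) and 0.396% of all probe sets were called. The only one of the 3 with a gene symbol was AT1G53540, higher with BL by 2.71 (SE 0.20). On solvent replicate 3 itself this gene lay among the BL arrays at 0 mM, and with all 6 arrays it was not called. For the BL response under H2O2 minus that at 0 mM, limma called 0 members (0.0609% of all probe sets, 0.00761% up and 0.0533% down), with 18 members and 2131 probe sets at an unadjusted p under 0.05. Without solvent replicate 3, 5 members (2.92%) and 0.837% of all probe sets were called, among them AT1G53540 at -2.52 and AT1G52560 at -2.54. Without solvent replicate 2, 21 members were called, and their share of 12.3% was close to the 13.6% of all probe sets.

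Of 210 listed genes of oxidative stress, heat shock, calcium, detoxification, dehydration, unfolded protein and brassinosteroid pathways, 45 could be matched to a probe set with 1 symbol and 4 were members, GSTU25, CML37, STZ and LTI30. Of the 40 tested, 20 fell and 6 rose with dose, while 16.2% of all 13140 probe sets fell and 22.2% rose. The chaperone partners held no member, and 6 of 7 fell, Fes1A by 3.00 and Hop3 by 2.46 among them, and Hop1 rose by 0.41, while the 4 tested calcium signalling genes all fell, CML37 being the only member. In the glutathione transferase list GSTU25 was the only member among 7 tested and the only one to fall, while GSTU26 rose by 1.35 (SE 0.24, limma adjusted p = 0.00158) and GSTU27 by 0.79 (SE 0.13, limma adjusted p = 0.00125). GSTU26 averaged 8.73 on the H2O2 arrays and 7.96 on the 5 at 0 mM, a margin of -0.87 by the rule. AER fell by 2.52 (SE 0.26, limma adjusted p = 6.59e-05), like the loci on either side of it. Of 5 tested antioxidant enzymes none was a member and 0 were called by limma, the lowest adjusted p being 0.194. The lists of brassinosteroid genes, heat shock factors and sulphur assimilation could not be matched to any probe set with 1 symbol.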

How the data were processed

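RNA from whole Arabidopsis seedlings was measured on 16 Affymetrix arrays. The deposited values are log2 signals per probe set, which the authors computed with GCRMA (per the submitters' processing notes, version unstated). GCRMA corrects background by probe sequence, normalises across arrays and summarises probes, which can compress differences near the lowest value. A genome build is not given in the sources used. The log2 scale was inferred from the range of the values, and no further scaling was applied.

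Symbols came from the platform annotation and were updated through a RefSeq gene table. Roles of genes were added as general background. Probe sets entered tests at a value of at least 5 on at least 2 of 16 arrays, which kept 13140. Tests used limma 3.58.1 (lmFit, eBayes) in R 4.3.3 with Benjamini-Hochberg adjustment over all of them, and values were handled in Python 3.11.15. Slopes had BL as an additive term, and BL under H2O2 had dose as a block. The scripts were tested on simulated data. Alternatives were other scalings, a linear dose, no filter, other margins, and leaving out arrays. Arrays have no read depth, and their number limits the precision.

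The members, role groups and gene lists were chosen with earlier results of these data known. Named are, among members with 1 symbol, the 10 widest margins, the 10 largest falls and rises called, BL calls, members of the lists, the 3 members nearest the margin on either side, and the 5 highest and 5 lowest on solvent replicate 3. Other genes named were chosen after their values were seen.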

Additional observations from a re-analysis of the deposited data

How the results depend on the processing

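The number of members was 172, and 49 with all 6 arrays at 0 mM, 35 at a margin of 2 and 407 at a margin of 0.5. Leaving out any array gave 172 to 286, the highest without solvent replicate 1 at 0 mM. The members rising with dose numbered 13, and 7 with arrays centred on their median, 4 with a linear dose, 4 without both 1 mM arrays and 21 without both 5 mM arrays, the last 2 settings chosen after seeing the data. Leaving out 1 array gave 6 to 15 rising and 82 to 95 falling. Of all probe sets 22.2% rose and 16.2% fell in the unchanged fit, and their shares under the other settings were not recorded. These member counts are therefore a description. BL at 0 mM gave 0 to 3 members called (0 to 2 up, 0 to 1 down) when 1 array was left out, and its difference from BL under H2O2 gave 0 to 21 (0 to 18 up, 0 to 4 down). The count of 21 came without solvent replicate 2, where 12.3% of members and 13.6% of all probe sets were called. Named genes entered the next count only by a called dose slope, so genes without a call and the BL comparisons are not in it. Of 396 such values under alternatives, 374 kept their direction and side of the threshold, 22 lost the call and 0 reversed. The cause of these changes was not tested. Same-numbered BL and solvent arrays at 0 mM had correlations of deviations of 0.18, 0.11 and -0.07, so the numbers were not taken to pair them, and with the replicate block 0 members were called in either BL comparison. Above 0 mM there is 1 array per dose and hormone state, which limits all slopes.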
